A study of Mus musculus with 28 samples.

Results

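The IFIT genes (interferon-induced proteins with tetratricopeptide repeats) were followed here as a group of 5 members: Ifit1, Ifit1bl1, Ifit2, Ifit3 and Ifit3b. They were taken as the rows whose Ensembl identifier maps to one of these symbols, namely ENSMUSG00000034459 (Ifit1), ENSMUSG00000079339 (Ifit1bl1), ENSMUSG00000045932 (Ifit2), ENSMUSG00000074896 (Ifit3) and ENSMUSG00000062488 (Ifit3b). All 5 were found among the 15423 genes of a first count table and the 56941 genes of a second. Both tables come from messenger RNA sequencing of primary mouse bone marrow-derived macrophages. The marrow came from male and female mice of 2 to 4 months, grew for 6 days in medium conditioned by L929 cells (a source of macrophage growth factor), and spent the next 24 h without that medium. The first experiment held 3 groups of 4 libraries: WT (C57BL/6 mice), Irgm1-KO (Irgm1-/- mice) and Irgm_IFNAR-KO (Irgm1-/- mice that also lack IFNAR, the receptor for type I interferon), the mutants having been backcrossed to C57BL/6. The second held 4 groups of 4 libraries: WT_control, WT_fenofibrate, Irgm1KO_control and Irgm1KO_fenofibrate, where the drug was given at 50 µM. The sources used here do not give how long fenofibrate was applied or what the control cells received, and none of the groups analysed here lacked IFNAR alone. Whether the libraries of a group came from separate animals is not in the labels, and a p-value here measures only how far these libraries spread, which may be technical. The cultures were sequenced whole.

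IFIT proteins are among the most strongly induced products of type I interferon signalling. Interferon beta and the interferon alphas bind IFNAR, the kinases JAK1 and TYK2 then activate STAT proteins, and these join IRF9 in a complex that binds interferon-stimulated response elements in the promoters of its target genes; the sensing factor IRF3 can also act on several of these promoters directly. IFIT1 binds RNA whose cap lacks the methyl groups of the host's own mRNA and blocks its translation. IFIT2 binds RNA and IFIT1-type proteins and is linked to cell death. IFIT3 acts as a partner of the other members, and Ifit3b is a mouse duplicate of Ifit3. Irgm1 is an interferon-inducible GTPase whose loss in macrophages is known to raise type I interferon responses. Fenofibrate lowers blood lipids and acts through the nuclear receptor PPAR alpha.

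The members lie in 1 cluster on chromosome 19 that spans 99.3 kb from the first to the last of them. In GENCODE order the genes are Ifit2, Ifit3, Ifit1bl1, Ifit3b, a sixth gene named Ifit1bl2 that is no member here, and Ifit1. Ifit1bl1 and Ifit1bl2 are read from the minus strand and the others from the plus strand. No exon of a member overlaps that of another. The stretches upstream of the transcription start that hold a pair of GAAA blocks, the core of an interferon-stimulated response element, are shown because the comparisons below turn on interferon signalling. They were taken from RefSeq (build GRCm38.p6, which is not the build of the count tables), where every member had at least 1 annotated start and Ifit1bl1 and Ifit2 had 2. Each is written 5′ to 3′ on the strand of its gene with 20 bases on either side where the window allows, and capitals mark GAAA repeated after a gap of 2 bases, read on either strand. The positions are chr19:34640765-34640833 for Ifit1, chr19:34583353-34583436 for Ifit3, chr19:34607749-34607832 for Ifit3b, and chr19:34602043-34602092 for Ifit1bl1.
Ifit1: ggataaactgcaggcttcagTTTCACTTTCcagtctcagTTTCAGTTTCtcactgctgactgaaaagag
Ifit3: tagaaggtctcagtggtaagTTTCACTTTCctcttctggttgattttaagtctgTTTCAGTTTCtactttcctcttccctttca
Ifit3b: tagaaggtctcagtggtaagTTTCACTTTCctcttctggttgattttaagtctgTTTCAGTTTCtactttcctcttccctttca
Ifit1bl1: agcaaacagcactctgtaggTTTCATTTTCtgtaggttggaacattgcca

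The motif was found in 2.98% of the 32851 RefSeq windows of 250 bases upstream of a start, and 2 or more matches in 0.180% of them. Ifit1 held 2 matches, beginning 104 and 85 bases before its start. Ifit3 held 2, at 156 and 122 bases, and Ifit3b held 2, at 188 and 154 bases. The 84 bases shown for Ifit3 and Ifit3b were identical. Ifit1bl1 held 1 match in each of its windows, at 104 bases before one start and 23 before the other. The stretch shown for Ifit1 is, read from the opposite strand, also upstream of a start of Ifit1bl2. Neither window of Ifit2 held the pair, which says only that these letters are not in those windows; one of them held TTC and GAA spaced by 3 bases, a pattern found in 7.02% of all windows.

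Library totals ran from 48652844 to 70455339 counts in the first experiment and from 82362311 to 120844616 in the second. Levels are given as CPM, the usual per-million scale for counts, after TMM scaling of the library totals. Irgm1 was lower in every library labelled as a knockout than in every WT library of its experiment (first: 1189 to 1352 CPM in WT, 628 to 839 in Irgm1-KO and 641 to 786 in Irgm_IFNAR-KO; second: 1514 to 1669 in WT_control and 991 to 1040.3 in Irgm1KO_control). A count over a whole gene keeps any part that a deletion spares, so this check is a partial one. Ifnar1 read 114, 109, 53.1 and 108 CPM in the Irgm_IFNAR-KO libraries against 128 to 141 in WT, and that difference was not called (adjusted p = 0.119, edgeR), so the counts alone do not establish the receptor label. Of 8 macrophage markers all were counted in every library, at a summed 21161 to 41487 CPM in WT, 9428 to 14606 in Irgm1-KO and 28663 to 39956 in Irgm_IFNAR-KO, and at 22139 to 30726 in WT_control, 13949 to 22491 in WT_fenofibrate, 10544 to 12746 in Irgm1KO_control and 14989 to 18387 in Irgm1KO_fenofibrate. The sum, which the most abundant markers carry, was thus lowest in Irgm1-KO and Irgm1KO_control, where the IFIT genes were highest. Gene by gene, 1 of 8 was called higher and 3 lower in Irgm1-KO against WT (background 19.8% higher and 20.7% lower of all tested genes; median log2 fold change -0.22), and 1 higher and 5 lower in Irgm1KO_control against WT_control (background 27.3% higher and 26.1% lower; median -0.44). In Irgm1KO_fenofibrate against WT_control 1 was higher and 6 lower (background 25.9% higher and 22.5% lower; median -0.77), so by the median the treated knockout cells were the lower. In the first experiment neutrophil markers (6 of 7 listed genes in the table) summed to 15 to 38.6 CPM in WT, 5.14 to 9.38 in Irgm1-KO and 14.9 to 24.6 in Irgm_IFNAR-KO. Osteoclast markers (3 of 4) summed to 11.3 to 16.6, 20.0 to 21.1 and 6.79 to 8.59 in the same order, so they moved as the IFIT genes did there, and dendritic cell markers (4 of 5) to 2.13 to 2.8, 2.59 to 4.07 and 4.56 to 5.79. T, B and NK cell and fibroblast markers summed to less than 2 CPM in every library whose count table held them. The first count table lacked all listed NK cell markers and held 1 of 4 T cell, 1 of 4 B cell and 2 of 4 fibroblast markers. In the second table Cd3g was at 0 throughout. In the second experiment osteoclast markers (4 of 4) summed to 10.4 to 13.7 CPM in WT_control, 13.1 to 17.9 in WT_fenofibrate, 32.4 to 50.1 in Irgm1KO_control and 51.2 to 103 in Irgm1KO_fenofibrate. Dendritic cell markers (5 of 5) summed to 1.25 to 1.83, 0.323 to 0.525, 2.92 to 5.1 and 1.41 to 1.81 in that order, highest in Irgm1KO_control as the IFIT genes were, while Flt3 reached at most 0.0351 CPM and Siglech 0.0454. Neutrophil markers (7 of 7) summed to 2.18 to 5.9, 2.14 to 2.89, 0.312 to 0.592 and 0.861 to 2.46. The part of these shifts in the results was not tested, and in bulk RNA fewer cells of a type and less RNA per cell cannot be told apart.

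The first experiment bears on the question whether the changes seen without Irgm1 depend on type I interferon signalling. All 5 IFIT transcripts were higher in Irgm1-KO than in WT, by 2.92-fold to 6.83-fold, and all 5 were below the WT level in Irgm_IFNAR-KO. In the first experiment the 5 genes together took 0.173% ± 0.017 of all counts in WT (SD, n = 4), 0.587% ± 0.057 in Irgm1-KO and 0.0668% ± 0.00552 in Irgm_IFNAR-KO. With edgeR's quasi-likelihood test and a p below 0.05 after Benjamini-Hochberg adjustment as the threshold, 5 of 5 members were called higher in Irgm1-KO than in WT, where 19.8% of 13998 tested genes were. All 5 were called lower in Irgm_IFNAR-KO than in Irgm1-KO (background 21.3%) and lower in Irgm_IFNAR-KO than in WT (background 8.22%). In none of these 15 pairings of a member with a comparison did the libraries of the 2 groups overlap. The share of all tested genes without such overlap was not counted, so this describes the members only. The last 2 comparisons each share a group with the first, so the 3 sets of values are given side by side and not as separate support. The median log2 fold change of the members was 2.00, -3.87 and -2.02 in the 3 comparisons, beside medians of -0.02, 0.02 and 0.01 over all tested genes.

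**Figure D1:**
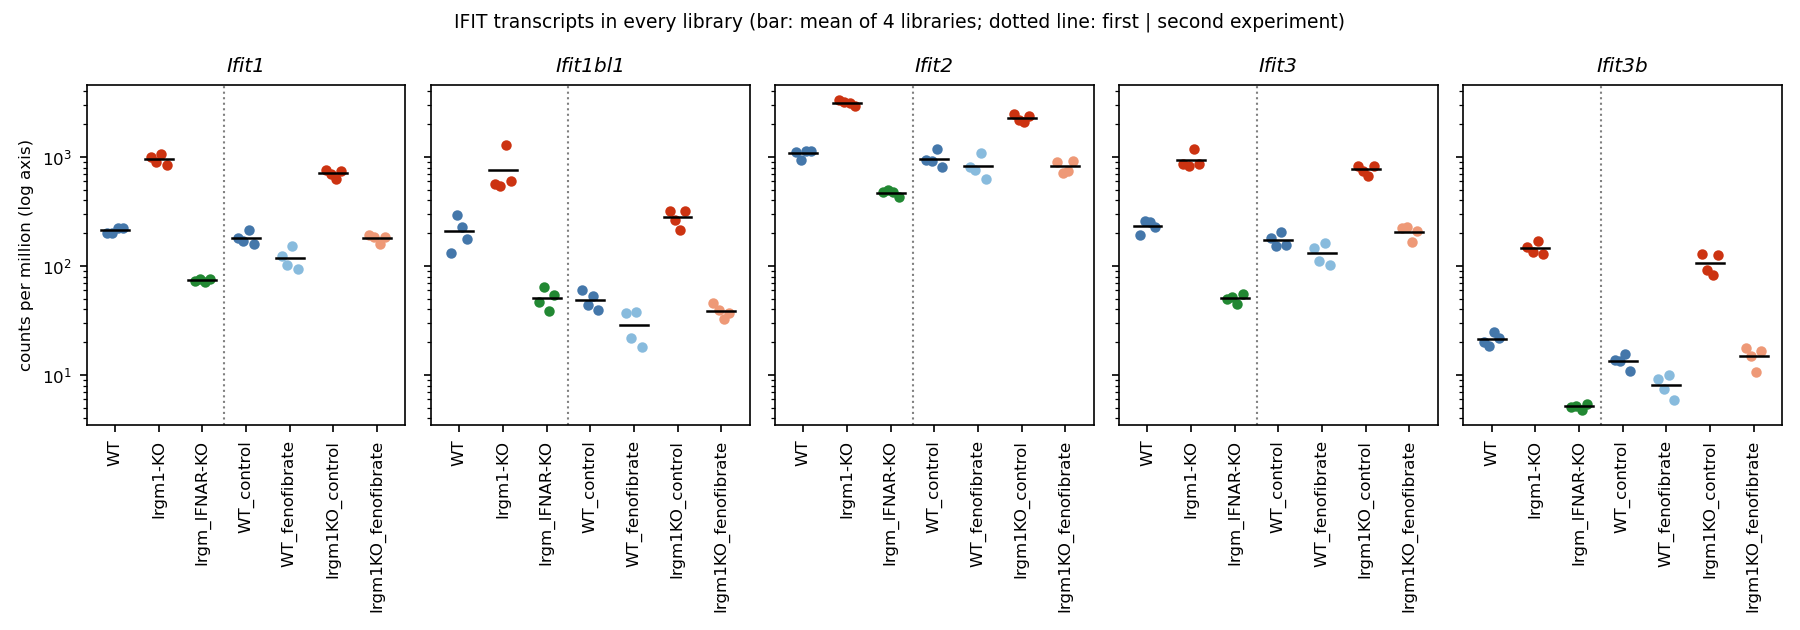
CPM (vertical log axis) of each IFIT member in every library, by group; points are libraries, bars are means of 4, and the dotted line separates the experiments. Irgm1-KO and Irgm1KO_control are the highest groups of their experiments for every member, and Irgm_IFNAR-KO is lowest in the first.

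Ifit1, the sensor of incompletely capped RNA, read 202, 199.6, 225 and 221 CPM in WT. In Irgm1-KO it read 998, 897, 1056 and 843, and in Irgm_IFNAR-KO 73.2, 75.9, 72.1 and 75.6 CPM. The groups were far apart and the receptor-deficient libraries lay within 4 CPM of each other. The rise in Irgm1-KO was 4.47-fold (log2 fold change 2.16, SE 0.085, adjusted p = 8.12e-09), the difference between Irgm_IFNAR-KO and Irgm1-KO was -3.68 (SE 0.0906), and that between Irgm_IFNAR-KO and WT -1.51 (SE 0.0834) on the log2 scale.

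Ifit1bl1, a gene related to Ifit1, was the most variable member. Its WT libraries read 133, 294, 229 and 179 CPM, its Irgm1-KO libraries 565, 546, 1295 and 603 and its Irgm_IFNAR-KO libraries 47.2, 64.8, 38.9 and 54.6. Irgm1-KO replicate 3 stood well above the other 3, yet the lowest Irgm1-KO library was still above the highest WT library. The log2 fold change was 1.85 in Irgm1-KO against WT (SE 0.319, adjusted p = 0.000589) and -2.02 in Irgm_IFNAR-KO against WT (SE 0.322). Without that library the rise was 1.45. Xist, a transcript of the inactive X chromosome of females, read 231, 50.8, 127 and 126 CPM in the same WT libraries, so that the library highest for Xist was lowest for Ifit1bl1 and the lowest was highest. With log2 Xist as a covariate the log2 fold change in Irgm1-KO was 2.03.

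Ifit2 was the most abundant member and moved least. It read 1119.8, 928, 1131 and 1134 CPM in WT, 3328, 3201, 3134 and 2938 in Irgm1-KO and 476, 493, 477 and 429 in Irgm_IFNAR-KO. WT replicate 2 was below the other 3, and the groups stayed apart. The rise in Irgm1-KO was 2.92-fold (log2 fold change 1.55, SE 0.0827, adjusted p = 4.67e-08), and Irgm_IFNAR-KO was at -2.75 against Irgm1-KO (SE 0.0863) and -1.20 against WT (SE 0.082).

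Ifit3, the partner protein of the family, read 193, 257, 253 and 227 CPM in WT, 855, 835, 1176 and 855 in Irgm1-KO and 50.1, 52.4, 45.2 and 55.4 in Irgm_IFNAR-KO. Irgm1-KO replicate 3 was again the highest. Its log2 fold changes were 2.0 (SE 0.134, adjusted p = 2.96e-07), -4.19 (SE 0.147) and -2.20 (SE 0.135) in the same order of comparisons.

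Ifit3b, the duplicate of Ifit3, was the scarcest member and had the widest range across the 3 genotypes. It read 20.2, 18.5, 24.9 and 21.9 CPM in WT, 150.5, 134, 171 and 129 in Irgm1-KO and 5.11, 5.22, 4.82 and 5.48 in Irgm_IFNAR-KO. The rise in Irgm1-KO was 6.83-fold (log2 fold change 2.77, SE 0.115, adjusted p = 1.11e-08), and Irgm_IFNAR-KO was at -4.82 against Irgm1-KO (SE 0.128) and -2.05 against WT (SE 0.115). Ifit3 and Ifit3b are near-identical copies: 51.2% of the 50-base windows of Ifit3 transcripts occur in Ifit3b and 44.5% of those of Ifit3b occur in Ifit3 (31.7% and 27.4% for windows of 100 bases). The sources used here do not say how reads that match both were assigned, and the split between these genes is uncertain. Their summed counts rose by 2.08 on the log2 scale in Irgm1-KO. Ifit1 and Ifit1bl1 shared 7.13% and 6.45% of their 50-base windows with another IFIT gene, mostly Ifit1bl2, and Ifit2 shared none.

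All 5 members were higher in Irgm1-deficient control cells of the second experiment too, and with fenofibrate all 5 were lower there, at levels that overlapped those of untreated WT cells. The share of all counts taken by the 5 genes was 0.133% ± 0.0207 in WT_control (SD, n = 4), 0.115% ± 0.0261 in WT_fenofibrate, 0.412% ± 0.0345 in Irgm1KO_control and 0.126% ± 0.0113 in Irgm1KO_fenofibrate. In Irgm1KO_control against WT_control 5 of 5 members were called higher (background 27.3% of 15429 tested genes), with a median log2 fold change of 2.14. In Irgm1KO_fenofibrate against Irgm1KO_control 5 of 5 were called lower (background 22.2%), with a median of -1.97. In WT_fenofibrate against WT_control 4 of 5 were called lower (background 16.9%), with a median of -0.62. These calls come from the fit that does not use the pairing of libraries described below. Medians over all tested genes lay between 0.00 and 0.02 in these 3 comparisons. The tables of the experiments were fitted separately and their levels are not compared.

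**Figure D2:**
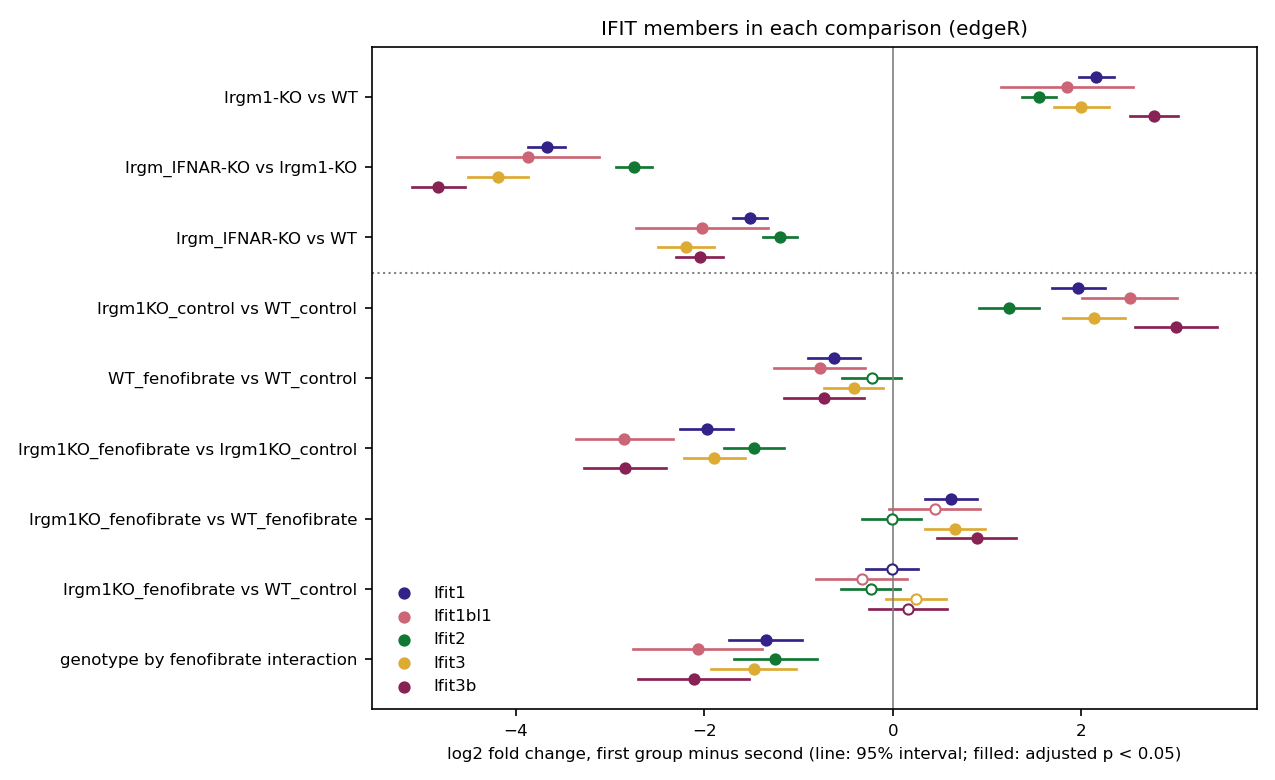
Log2 fold change of each member (points) with its 95% interval (lines) in 8 comparisons and the interaction, from edgeR; filled points have an adjusted p below 0.05 and the dotted line separates the experiments. Ifit2 lies nearest to 0 in the comparisons with called members, while Irgm1KO_fenofibrate against WT_control has open points for all 5.

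Ifit1 read 181, 170.3, 215 and 159 CPM in WT_control and 753, 701, 632 and 749.5 in Irgm1KO_control. With fenofibrate it read 123, 102, 152 and 93.5 in WT and 193, 184, 159 and 185 in Irgm1KO cells. The treated Irgm1KO libraries overlapped the untreated WT libraries, and the treated WT libraries lay below both. The genotype difference in control cells was 3.91-fold (log2 fold change 1.97, SE 0.132, adjusted p = 9.67e-09), and the log2 change with fenofibrate was -1.97 in Irgm1KO (SE 0.133) and -0.62 in WT (SE 0.129, adjusted p = 0.00144).

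Ifit1bl1 read 60.0, 43.5, 53 and 39.6 CPM in WT_control and 322, 265, 215 and 321 in Irgm1KO_control. With fenofibrate it read 37.4, 21.7, 37.6 and 18 in WT and 46.2, 39.8, 32.5 and 37.4 in Irgm1KO cells. Every treated Irgm1KO library was far below every untreated one, by 7.21-fold in the fit (log2 fold change -2.85, SE 0.239). The genotype difference in control cells was 2.52 on the log2 scale (SE 0.236, adjusted p = 5.41e-07) and the WT change with the drug -0.78 (SE 0.227, adjusted p = 0.0154).

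Ifit2 read 942, 915, 1189 and 809 CPM in WT_control and 2455, 2172, 2069.5 and 2382 in Irgm1KO_control. With fenofibrate it read 813, 764, 1089.8 and 631 in WT and 896, 711, 748 and 919 in Irgm1KO cells. The treated and untreated WT libraries overlapped, and this was the one member not called in WT (log2 fold change -0.23, 95% interval -0.54 to 0.09, adjusted p = 0.259). Same-numbered control and fenofibrate libraries of a genotype deviated together in these counts and were taken as pairs, which the labels do not state. With the pair as a block Ifit2 was called in WT too (-0.24, adjusted p = 0.00156, edgeR). Its log2 changes in the 4 pairs ran from -0.36 to -0.13. In Irgm1KO cells it fell 2.77-fold with the drug (log2 fold change -1.47, SE 0.15), and the genotype difference in control cells was 1.24 (SE 0.149).

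Ifit3 read 181, 153, 207 and 155 CPM in WT_control and 833, 748, 668 and 821 in Irgm1KO_control. With fenofibrate it read 147, 111, 163 and 101 in WT and 224, 229.6, 164 and 209 in Irgm1KO cells. The WT groups overlapped, and the WT change of -0.42 (SE 0.149, adjusted p = 0.0402) was the weakest of the called ones. In fits that do not use the pairing its call was lost without WT_control replicate 1 (adjusted p = 0.0801) or 3 (0.114), without WT_fenofibrate replicate 2 (0.110) or 4 (0.127), and with no filter on low counts (0.117). With the pair as a block the change was -0.43 and stayed called, with log2 changes of -0.62 to -0.30 in the 4 pairs. In Irgm1KO cells the change was -1.89 (SE 0.153, adjusted p = 1.32e-07), and the genotype difference in control cells was 2.14 (SE 0.155).

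Ifit3b read 13.8, 13.3, 15.7 and 10.9 CPM in WT_control and 129, 91.3, 83.5 and 127 in Irgm1KO_control. With fenofibrate it read 9.17, 7.42, 9.92 and 5.91 in WT and 17.7, 14.8, 10.7 and 16.7 in Irgm1KO cells. It had the largest genotype difference of the family in control cells, 8.02-fold (log2 fold change 3.0, SE 0.204), and fell by 7.19-fold in treated Irgm1KO cells (log2 fold change -2.85, SE 0.203, adjusted p = 5.73e-08). In WT the change was -0.73 (SE 0.197, adjusted p = 0.00961).

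**Figure D3:**
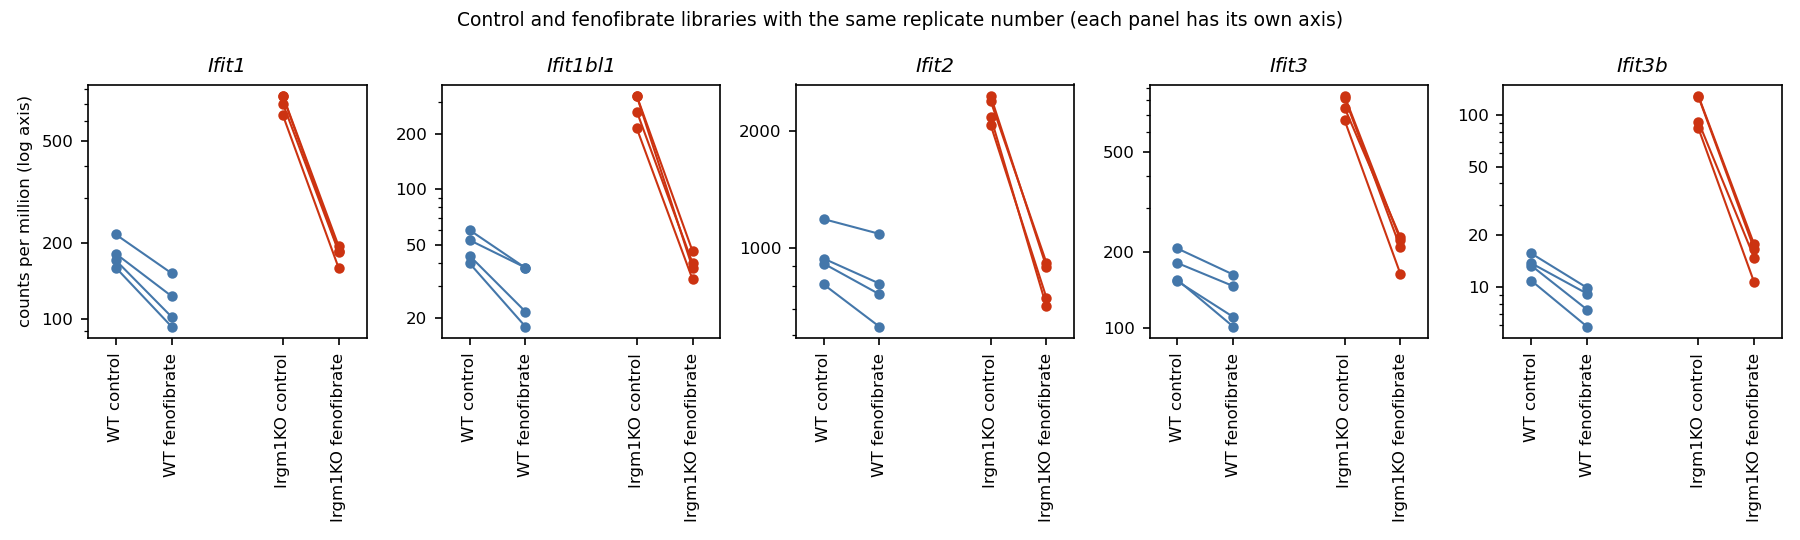
CPM (vertical log axis, one scale per panel) of each member in control and fenofibrate libraries; a line joins libraries of a genotype with the same replicate number. All 4 lines of each genotype go down for each of the 5 members, and the Irgm1KO lines are the steeper ones.

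The drug's effect was larger in Irgm1-deficient cells for every member. The interaction, which is the log2 fenofibrate effect in Irgm1KO minus that in WT, was called lower for 5 of 5 members (background 14.7%). It was -1.35 for Ifit1 (SE 0.182), -2.07 for Ifit1bl1 (SE 0.321), -1.25 for Ifit2 (SE 0.208), -1.48 for Ifit3 (SE 0.211) and -2.11 for Ifit3b (SE 0.276), with adjusted p from 6.28e-05 to 0.000384. Within pairs, every member fell in 4 of 4 pairs of both genotypes. The share of all tested genes that did so was not counted, so this describes the members only. The pair changes of Ifit1 ran from -2.02 to -1.93 in Irgm1KO and from -0.77 to -0.50 in WT, and those of Ifit3b from -2.97 to -2.62 and from -0.88 to -0.59.

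Drug-treated knockout cells were also set against both WT groups, which share libraries with the comparisons above. Against WT_fenofibrate, 3 of 5 members were called higher (background 18.1%): Ifit1 by 0.62 (SE 0.129), Ifit3 by 0.66 (SE 0.149) and Ifit3b by 0.89 (SE 0.197) on the log2 scale. Ifit2 was at -0.01 (95% interval -0.32 to 0.30) and Ifit1bl1 at 0.44 (95% interval -0.04 to 0.93, adjusted p = 0.146). Against WT_control, edgeR called 0 of 5 members, 0 of 5 had an unadjusted p below 0.05, and DESeq2 called 0, whereas 48.4% of all tested genes were called in either direction. The 95% intervals were -0.28 to 0.26 for Ifit1, -0.81 to 0.15 for Ifit1bl1, -0.55 to 0.08 for Ifit2, -0.07 to 0.56 for Ifit3 and -0.26 to 0.57 for Ifit3b, so differences of up to about these sizes are not shown to be absent. With log2 Xist as a covariate 2 of 5 were called lower than WT_control, Ifit1bl1 at -0.49 and Ifit2 at -0.32; Xist ranged from 0.00843 to 110.3 CPM in WT_control and from 1.07 to 116 in Irgm1KO_fenofibrate, so libraries of 1 group differed in it.

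The members did not move by equal factors. The log2 ratio of the reads of 2 members within a library, which library scaling cannot alter, was compared between groups for all 10 pairs in 8 comparisons by a two-sided exact permutation test of 4 against 4 libraries. In 46 of the 80 tests the groups did not overlap, which gives the smallest p this design allows, 0.0286, and an adjusted p of 0.0497 over the 80 tests. Every passing test sits at this smallest p, so the adjusted value rests on how many tests reach it together. Slightly fewer would have left none below 0.05. The 10 pairs are built from 5 members and the 8 comparisons share groups, so the tests are not separate support. No share for pairs of other genes was computed. By comparison, 4 of 10 pairs passed in Irgm1-KO against WT, 8 in Irgm_IFNAR-KO against Irgm1-KO, 5 in Irgm_IFNAR-KO against WT, 9 in Irgm1KO_control against WT_control, 4 in WT_fenofibrate against WT_control and 7 in Irgm1KO_fenofibrate against Irgm1KO_control. Against WT_fenofibrate and WT_control, Irgm1KO_fenofibrate differed in 3 and 6 pairs.

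**Figure D4:**
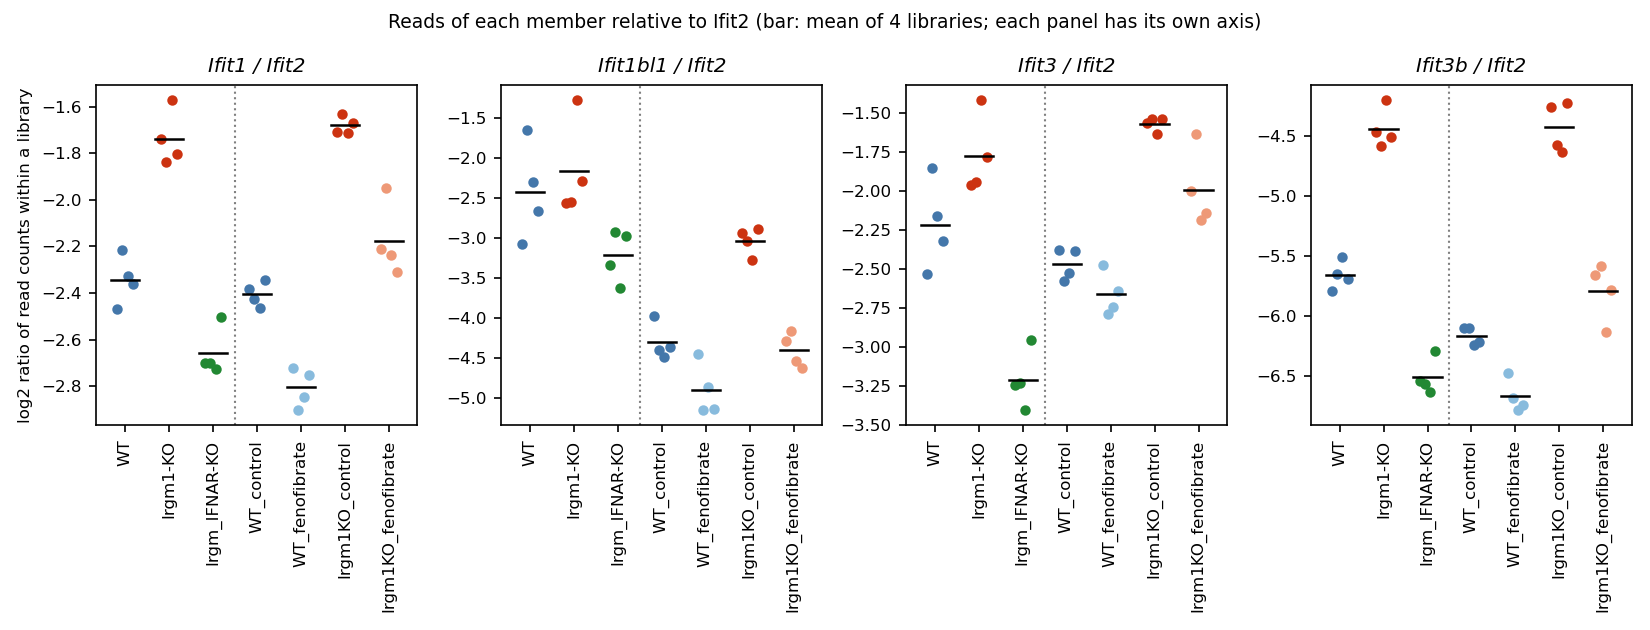
Log2 ratio of the read counts of Ifit1, Ifit1bl1, Ifit3 and Ifit3b to those of Ifit2 in every library (points; bars are means of 4), one axis per panel, with the experiments separated by a dotted line. The Ifit1 and Ifit3b ratios of Irgm1-KO and Irgm1KO_control libraries lie above those of every other group of their experiment.

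Ifit2 made up 53.5% ± 5.19 of the family's reads in Irgm1-KO against 61.5% ± 5.27 in WT (SD, n = 4), where single libraries overlapped, and 55% ± 1.02 in Irgm1KO_control against 69.7% ± 1.21 in WT_control, where they did not. There were 45.5 to 55.3 reads of Ifit2 for each of Ifit3b in WT, 18.4 to 23.9 in Irgm1-KO and 78.2 to 99 in Irgm_IFNAR-KO. In the second experiment there were 68.4 to 75.7 in WT_control, 18.7 to 24.8 in Irgm1KO_control, 88.6 to 109.8 in WT_fenofibrate and 47.9 to 70.1 in Irgm1KO_fenofibrate. The ratio was thus lowest in Irgm1-KO and Irgm1KO_control, where the family was highest, and it differed between groups in 7 of the 8 comparisons (adjusted p = 0.0497, exact test), all but Irgm1KO_fenofibrate against WT_control (adjusted p = 0.116). For each read of Ifit2 there were 0.181 to 0.215 of Ifit1 in WT and 0.28 to 0.337 in Irgm1-KO, and this ratio differed in all 8 comparisons.

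The near-identical copies diverged as well. There were 9.56 to 13.9 reads of Ifit3 for each of Ifit3b in WT, 5.68 to 6.89 in Irgm1-KO and 9.36 to 10.1 in Irgm_IFNAR-KO. The log2 ratio was 2.66 in Irgm1-KO against 3.44 in WT. In Irgm1KO_control it was 2.86, against 3.70 in WT_control and against 3.80 in Irgm1KO_fenofibrate. Each of these differences was without overlap (exact p = 0.0286). These ratios rest on how shared reads were assigned, which can pull the counts of the copies toward or away from each other. Ifit1bl1 against Ifit3b was at 1.39 in Irgm1KO_fenofibrate and 1.39 in Irgm1KO_control, and this pair did not pass (exact p = 1).

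Compared per kilobase of exon (GENCODE exon union), the order of levels was Ifit2, Ifit3, Ifit1, Ifit1bl1 and Ifit3b in 6 of 7 groups. In WT of the first experiment Ifit1bl1 stood above Ifit1, with 92.4 ± 30.7 against 79.8 ± 4.88 CPM per kilobase (SD, n = 4), a difference within the spread of Ifit1bl1. The other levels there were 274 ± 25.6 for Ifit2, 133 ± 16.8 for Ifit3 and 10.7 ± 1.36 for Ifit3b. In Irgm1-KO they were 802 ± 41.5 for Ifit2, 533 ± 94.1 for Ifit3, 357 ± 36.2 for Ifit1, 333 ± 160.3 for Ifit1bl1 and 73.1 ± 9.37 for Ifit3b, where Ifit1 and Ifit1bl1 again did not differ beyond their spread. In Irgm_IFNAR-KO the neighbours Ifit3 at 29.1 ± 2.48, Ifit1 at 27.9 ± 0.688 and Ifit1bl1 at 22.7 ± 4.87 were close together, with Ifit2 at 119 ± 7.05 and Ifit3b at 2.58 ± 0.137 apart. In Irgm1KO_control the levels were 578 ± 45.7, 440.0 ± 43.7, 267 ± 21.3, 124 ± 22.8 and 53.8 ± 11.8 CPM per kilobase in the order given, each step larger than the spread. In WT_control they were 245 ± 40.9, 99.7 ± 14.5, 68.3 ± 9.08, 21.7 ± 4.09 and 6.71 ± 0.983, and in WT_fenofibrate 209.9 ± 49.1, 74.7 ± 16.7, 44.3 ± 9.73, 12.7 ± 4.57 and 4.05 ± 0.902. In Irgm1KO_fenofibrate they were 208 ± 26.6, 118 ± 16.9, 67.9 ± 5.63, 17.2 ± 2.52 and 7.49 ± 1.55. The exon unions used were those of the earlier build, so per-length levels are approximate. The places of Ifit3 and Ifit3b in the order also rest on how reads that match both were assigned.

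The pathway that induces the IFIT genes was examined through lists. Transcripts of the ligand were scarce, and with few counts behind the WT values no fold is given. Ifnb1, which encodes interferon beta, read 0.0814, 0.217, 0.0896 and 0.102 CPM in WT, 1.4, 1.73, 3.79 and 1.5 in Irgm1-KO and 0.163, 0.214, 0.233 and 0.625 in Irgm_IFNAR-KO. Irgm1-KO replicate 3, highest for Ifit1bl1 and Ifit3, was also the highest for Ifnb1. In the second experiment Ifnb1 read 0.011 to 0.059 CPM in WT_control, 1.09 to 2.02 in Irgm1KO_control, 0.0102 to 0.0366 in WT_fenofibrate and 0.0719 to 0.216 in Irgm1KO_fenofibrate. It was called higher in Irgm1-KO and Irgm1KO_control (adjusted p = 5.29e-05 and 2.99e-08, edgeR) and lower with fenofibrate in Irgm1KO cells (adjusted p = 7.36e-07).

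Of 10 listed genes for interferon, its receptor and the JAK-STAT relay, 8 passed the filter on low counts. Of these, 4 were higher and 1 lower in Irgm1-KO than in WT (background 19.8% higher and 20.7% lower), and 0 higher and 5 lower in Irgm_IFNAR-KO than in Irgm1-KO (background 21.5% higher and 21.3% lower). In the second experiment 4 were higher and 1 lower in Irgm1KO_control than in WT_control (background 27.3% higher and 26.1% lower), and 0 higher and 8 lower with fenofibrate in Irgm1KO cells (background 23.5% higher and 22.2% lower). With fenofibrate in WT cells 0 were higher and 5 lower (background 18.1% higher and 16.9% lower). The median log2 fold change with the drug was -0.33 in WT and -0.38 in Irgm1KO cells. In Irgm1KO_fenofibrate against WT_control 1 was higher and 5 lower (background 25.9% higher and 22.5% lower). Stat2, a subunit of the complex that acts on IFIT promoters, was at 1.27 in Irgm1-KO against WT (SE 0.147) and at -2.21 in Irgm_IFNAR-KO against Irgm1-KO. Of 5 interferon regulatory factors 3 rose and 1 fell in Irgm1-KO (background 19.8% higher and 20.7% lower). Irf7, which amplifies interferon production, rose from 462 ± 108 to 2457 ± 362 CPM and was at 28.7 ± 3.02 in Irgm_IFNAR-KO, while Irf8 fell by 0.63 on the log2 scale.

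Genes for sensors of foreign nucleic acid and for the adaptors and enzymes that relay their signal to interferon rose in 8 of 10 cases in Irgm1-KO (background 19.8%) and in 8 of 10 in Irgm1KO_control (background 27.3%). They fell in 9 of 10 cases in Irgm_IFNAR-KO against Irgm1-KO (background 21.3%) and in 10 of 10 with fenofibrate in Irgm1KO cells (background 22.2%). With fenofibrate in WT cells 1 rose and 8 fell (background 18.1% higher and 16.9% lower), and 6 had a lower interaction (background 14.7%). The RNA sensor Ifih1 was at 1.75 (SE 0.103) and the RNA sensor Rigi, listed as Ddx58 in the naming table, at 1.69 (SE 0.162) in Irgm1-KO against WT. Among 4 feedback inhibitors 3 rose and 1 fell in Irgm1-KO (background 19.8% higher and 20.7% lower). Usp18, which blocks signalling at the receptor, went from 98.7 ± 26.7 to 667 ± 188 CPM, and Socs3 fell by 1.17 (SE 0.122) on the log2 scale.

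Most of the other listed effectors that act on viral RNA were called in the direction of the members, except between treated knockout and untreated WT cells. Of 15, 14 rose and 1 fell in Irgm1-KO (median log2 fold change 1.58; background 19.8% higher and 20.7% lower). In Irgm_IFNAR-KO 14 fell against Irgm1-KO (median -4.92; background 21.3%) and 14 against WT (median -1.53; background 8.22%). In the second experiment 14 rose and 1 fell in Irgm1KO_control (median 1.70; background 27.3% higher and 26.1% lower). With fenofibrate 2 rose and 9 fell in WT (median -0.35; background 18.1% higher and 16.9% lower), 1 rose and 14 fell in Irgm1KO (median -1.14; background 23.5% higher and 22.2% lower), and 14 had a lower interaction (background 14.7%). In Irgm1KO_fenofibrate against WT_control 7 were higher and 2 lower (median 0.38, background 25.9% higher and 22.5% lower), whereas no IFIT member was called there. Oasl1 had the smallest p of the list in Irgm1-KO, at 4.32 there (SE 0.112), -8.07 in Irgm_IFNAR-KO against Irgm1-KO and 4.26 in Irgm1KO_control. The antiviral GTPase gene Mx1 was at 3.61 (SE 0.121) and the gene for the radical enzyme viperin, Rsad2, at 3.01 (SE 0.117) in Irgm1-KO.

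Genes for the mRNA cap and for eIF3 had no common direction in Irgm1-KO. The cap list held 6 genes whose products build or methylate the mRNA cap, the mark of the host's own mRNA. Of these, edgeR called 0 in Irgm1-KO against WT (background 19.8% higher and 20.7% lower). There 0 had an unadjusted p below 0.05 and DESeq2 called 0. In Irgm1KO_control against WT_control 1 was higher and 2 lower (background 27.3% higher and 26.1% lower). In Irgm1KO_fenofibrate against WT_control 0 were higher and 4 lower (background 25.9% higher and 22.5% lower). With fenofibrate 2 fell in WT (background 16.9%) and 3 in Irgm1KO cells (background 22.2%). Cmtr1, the ribose methyltransferase of the cap, was at -0.78 (SE 0.0766, adjusted p = 2.61e-06) with fenofibrate in WT. Of 13 subunits of the translation factor eIF3, which IFIT proteins bind, 4 rose and 3 fell in Irgm1-KO (background 19.8% higher and 20.7% lower), and 5 rose and 5 fell in Irgm1KO_control (background 27.3% higher and 26.1% lower). With fenofibrate 5 rose and 0 fell in WT (background 18.1% higher and 16.9% lower), and 7 rose and 0 fell in Irgm1KO (background 23.5% higher and 22.2% lower). Eif3c was at 0.67 (SE 0.0868) and Eif3f at -0.61 (SE 0.115) in Irgm1-KO.

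Genes in and around the cluster that are no members were read beside it. Ifit1bl2, which lies between Ifit3b and Ifit1, was scarce, at 0.366, 0.956, 0.323 and 0.625 CPM in WT and 3.54, 2.76, 5.08 and 3.06 in Irgm1-KO (a log2 change of 2.68 with SE 0.334, adjusted p = 4.95e-05), and it fell with fenofibrate in Irgm1KO cells (-2.29, SE 0.2). Of 5 genes flanking the cluster 1 rose and 2 fell in Irgm1-KO, a count near the background of 19.8% higher and 20.7% lower. Ch25h, the cholesterol 25-hydroxylase gene, went from 26.4 ± 1.32 to 155 ± 16 CPM in Irgm1-KO (a log2 change of 2.55 with SE 0.111) and to 11 ± 1.54 in Irgm_IFNAR-KO. With fenofibrate it was at -1.85 in WT (SE 0.281) and -2.41 in Irgm1KO (SE 0.275), with an interaction of -0.56 that was not called (adjusted p = 0.305). The pantothenate kinase gene Pank1 fell by 1.19 and the kinesin gene Kif20b by 1.49 on the log2 scale in Irgm1-KO.

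Genes whose pattern lay nearest to that of each member were sought by the root mean square difference in log2 fold change over 5 comparisons with an untreated WT group (2 in the first experiment and 3 in the second, which share their controls), among 9244 genes tested in both experiments that reached a mean of 5 CPM in some group of both. For naming the 2 nearest, other members and genes with a provisional name (Gm, AC, AI, AW, BC or Rik names) or no symbol were left out. Of the genes that remained, Helz2 (distance 0.284) and Trim30c (0.288) were nearest to Ifit1. Pacsin1 (0.271) and Trim30c (0.362) were nearest to Ifit1bl1, Mill2 (0.147) and Nt5c3 (0.196) to Ifit2, Trim30c (0.123) and Xaf1 (0.195) to Ifit3, and Trim30b (0.150) and Cd300e (0.233) to Ifit3b. With no gene left out, other members made up 1 of the 10 nearest genes of Ifit1, 2 of those of Ifit1bl1, 2 of those of Ifit3 and none of those of Ifit2 and Ifit3b. The nearest members to each other were Ifit1 and Ifit3 (0.354), and the farthest apart were Ifit2 and Ifit3b (1.07). The likeness of a pattern is a description of these libraries and rests on shared control groups.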

How the data were processed

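The authors deposited raw counts as whole numbers, with genes as Ensembl identifiers and a separate table for each experiment. The submitters' processing notes name build GRCm39 and the tools fastp, STAR and DESeq2; the sources used here do not name versions, the counter, the gene annotation or whether counting used strand. Per the labels, sequencing ran for 100 cycles in the first experiment and 50 in the second. Symbols were found for 99.6% and 91.2% of identifiers. Counts were fitted per experiment over all its groups with edgeR 4.0.16 (R 4.3.3): filterByExpr (minimum count 10, minimum total 15), TMM scaling, robust quasi-likelihood fit, Benjamini-Hochberg adjustment over all 13998 or 15429 tested genes, threshold 0.05. The standard error is the size of the log2 fold change divided by the square root of F. Tested on simulated data for Irgm1-KO against WT over 13998 genes, the fit recovered 44% of 1.5-fold and 100% of 2-fold changes; for Irgm1KO_control against WT_control over 15429 genes it recovered 86% and 100%.

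Replicate numbers come from the titles. In WT the control and fenofibrate library of each number deviated together from their group means (r of 0.486 to 0.827 over 4 pairs). Those of Irgm1KO did so too (r of 0.276 to 0.649). The pairing was thus inferred from these counts, and the labels do not state it. Across genotypes and in the first experiment the numbers gave no such pairs. Alternatives were DESeq2 1.42.0, RLE scaling, no filter, a replicate block, log2 Xist as a covariate, Ifit3 and Ifit3b summed, and leaving out each library. Named genes are the members, Irgm1 and Ifnar1, up to 3 genes with the smallest p per list, and the 2 nearest genes per member after the exclusions given above. Members and lists were chosen with earlier results of these data known. Single values of some listed genes are not reported here.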

Additional observations from a re-analysis of the deposited data

Results flagged for a closer look

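In 3 of the 35 groups of 4 libraries examined (5 members in 7 groups), 1 library stood apart from the other 3 by Dixon's criterion; chance alone marks about 1 group in 20. Ifit1bl1 reached 1295 CPM and Ifit3 1176 CPM in Irgm1-KO replicate 3, and Ifit2 was lowest in WT replicate 2, at 928 CPM. Leaving out Irgm1-KO replicate 3 changed the Ifit1bl1 rise from 1.85 to 1.45 on the log2 scale and that of Ifit3 from 2.00 to 1.87.

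The fenofibrate effect differed between the genotypes for all 5 members, tested as an interaction in edgeR. The log2 effect in Irgm1KO minus that in WT was -1.35 for Ifit1 (adjusted p = 6.42e-05), -2.07 for Ifit1bl1 (0.00027), -1.25 for Ifit2 (0.000384), -1.48 for Ifit3 (0.000114) and -2.11 for Ifit3b (6.28e-05).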

How the results depend on the processing

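Of 670 alternative values of a member in a comparison, 654 kept their direction and their side of the threshold, including 460 of 460 in the 6 comparisons of Irgm1-KO, Irgm_IFNAR-KO and WT with each other, of the control groups, of Irgm1KO with and without fenofibrate, and of the interaction. The summed counts of Ifit3 and Ifit3b were scored under both names, so those values entered these numbers more than once. Ifit3 lost its call in WT_fenofibrate against WT_control under 5 alternatives (adjusted p from 0.0801 to 0.127), and Ifit2 gained one there with the replicate block (log2 fold change -0.24) and without WT_fenofibrate replicate 3 (-0.39). With log2 Xist as a covariate, 2 members were called in Irgm1KO_fenofibrate against WT_control in place of 0, and 4208 genes in all were called in Irgm_IFNAR-KO against WT in place of 1702. Values close to 0 turned sign: Ifit1 in Irgm1KO_fenofibrate against WT_control was 0.0026 with the replicate block and ran from -0.065 to 0.067 when 1 library was left out, and Ifit2 in Irgm1KO_fenofibrate against WT_fenofibrate was 0.0078 with the block and ran from -0.12 to 0.15. The block ended or added no other call of a member. The cause of these shifts was not tested. With 0.5 counts added, 46 of the 80 ratio tests passed again, but at counts of 269 or more this addition hardly moves a ratio and checks little. Leaving out a library was not run for them, because 3 against 4 libraries cannot give an exact p below 0.0571. Counts of Ifit3 and Ifit3b are uncertain through shared sequence. Depth limits the members little, the lowest count of any in a library being 269, for Ifit3b.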

Other observations

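The reads of Ifit1 for each read of Ifit1bl1 numbered 0.678 to 1.52 in WT libraries of the first experiment and 3.01 to 4.06 in WT_control libraries of the second. In the untreated Irgm1-deficient libraries they numbered 0.815 to 1.76 and 2.33 to 2.94. These ranges come from tables that were made separately, from runs of 100 and 50 cycles, and were not compared by a test.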
